A study of Mus musculus with 19 samples.

Results

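The mitochondrial ribosomal protein genes encode the protein part of the ribosome inside mitochondria. The family was taken as every protein-coding gene whose mouse symbol is Mrpl or Mrps followed by a number and at most 1 letter, which gave 78 of the 26796 genes measured. Of these, 49 carry the large-subunit symbol Mrpl and 29 the small-subunit symbol Mrps. All 78 had counts in all 19 tumours and passed the filter on low counts. The family was chosen by the measured levels of Mrpl9, which were lower in the 27HC group in an earlier look at the same values, so the difference of Mrpl9 between the groups is given as a description without a test.

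Met1 is a mouse mammary tumour line that can be transplanted, and each sample is RNA from a whole Met1 tumour with its cancer and host cells. The mice received extracellular vesicles, small membrane-bound particles released by cells, from neutrophils. The neutrophils had been exposed to the solvent DMSO (9 tumours) or to 27-hydroxycholesterol (27HC), an oxidised product of cholesterol that acts on oestrogen and liver X receptors (10 tumours). The sources used here do not state the mouse strain, age, vesicle dose or treatment time, or whether any mouse gave more than 1 tumour, so p-values measure only the spread between these samples. Both groups received vesicles, and no tumour without vesicles was analysed here.

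Mitochondria keep a small genome whose messages encode core subunits of the respiratory chain, and these messages are translated by the mitochondrial ribosome. Its RNA comes from the mitochondrial genome, while all of its proteins are encoded in the nucleus, made in the cytosol and imported. Many of the proteins have a counterpart in the bacterial ribosome, and the others were added during mitochondrial evolution. The large subunit holds the site where peptide bonds form and the exit tunnel, and the small subunit binds the message and decodes it.

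By these origins, 30 large-subunit members have a bacterial counterpart and 19 have none, and 16 small-subunit members have a counterpart and 12 have none. A symbol does not always give the place of the protein. Mrps18a and Mrps30 encode proteins found in the large subunit of the solved structures, and Mrps36 encodes a part of the oxoglutarate dehydrogenase complex of the citric acid cycle. By structure the family held 51 large-subunit genes, 26 small-subunit genes and Mrps36. The members lie on 17 chromosomes, so the family is dispersed over the genome.

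Libraries held 28139419 to 41179056 expected counts, and this total was lower in the 27HC group by a margin close to the spread between tumours (two-sided exact permutation p = 0.0559, 0.335 after Benjamini-Hochberg adjustment over 6 library measures). Of the defining epithelial markers, Krt18 lay between 43.8 and 108.0 CPM (counts scaled to a common library size) and Epcam between 0.208 and 15.9 CPM, and Krt19 was at 0 in the lowest tumour. In 5 libraries (DMSO 1_5 and 2_3, and 27HC 1_3, 1_5 and 2_3) the count-weighted GC content was 49.4 to 49.6%, against 50.9 to 52.5% in the other 14. In those 5 libraries Ptprc, the pan-leukocyte marker CD45, was at 52.9 to 210.5 CPM, against 11.4 to 49.9 CPM in the others, while the summed level of 15 leukocyte markers overlapped (1399 to 2628 against 1356 to 2721 CPM). The summed level of 20 skeletal muscle markers was 26.8 to 6003 CPM in the 5 and 8.38 to 1826 CPM in the others. All 20 muscle markers had a higher fitted level with 27HC and 0 passed the edgeR threshold. At an unadjusted p under 0.05 there were 9, against 2.27% of all genes. These markers moved as 1 block (mean pairwise Pearson r 0.91), so they do not count separately. Their score per tumour gave a two-sided exact permutation p of 0.295 (0.549 after the same adjustment). The part of these measures in the results below was not tested unless a value without the 5 libraries is given.

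Promoters are shown for 3 members of differing behaviour, described below: Mrpl9, whose level hardly followed the family, and Mrpl53 and Mrps11, a large- and a small-subunit gene that followed it closely. Members that ran against the family, such as Mrpl50, are not shown. Each run holds the 250 bases before the transcript start on the plus strand of GRCm38.p6, from RefSeq. Mrpl9 is from chr3:94443086-94443335, Mrpl53 from chr6:83108858-83109107 and Mrps11 from chr7:78782881-78783130. Capitals mark matches to the motifs of 3 factors known for promoters of nuclear genes for mitochondrial proteins: GCATGCGC for NRF1, CCGGAAG for GABPA (NRF2) and AAGATGGC for YY1, searched on both strands.
Mrpl9: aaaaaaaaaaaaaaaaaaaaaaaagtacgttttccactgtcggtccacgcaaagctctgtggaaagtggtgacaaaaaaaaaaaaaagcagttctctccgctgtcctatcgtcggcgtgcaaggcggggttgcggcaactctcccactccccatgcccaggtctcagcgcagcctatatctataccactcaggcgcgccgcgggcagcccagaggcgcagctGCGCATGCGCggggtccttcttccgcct
Mrpl53: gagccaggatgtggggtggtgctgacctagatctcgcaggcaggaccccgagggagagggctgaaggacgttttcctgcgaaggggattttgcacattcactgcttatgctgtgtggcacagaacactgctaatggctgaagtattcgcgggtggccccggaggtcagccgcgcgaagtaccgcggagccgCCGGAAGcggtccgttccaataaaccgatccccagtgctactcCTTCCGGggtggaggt
Mrps11: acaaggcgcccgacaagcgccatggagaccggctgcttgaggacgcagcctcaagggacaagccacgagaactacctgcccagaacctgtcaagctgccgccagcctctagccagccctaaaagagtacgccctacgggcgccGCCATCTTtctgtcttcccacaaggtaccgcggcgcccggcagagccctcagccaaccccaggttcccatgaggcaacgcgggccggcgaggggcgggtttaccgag

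In the Mrpl9 promoter the NRF1 motif matched on both strands in 1 overlapping run of capitals, with first bases 28 and 26 bases before the start. Mrpl53 held the GABPA motif once on each strand, with first bases 59 and 16 bases before the start. Mrps11 held the YY1 motif on the minus strand, 107 bases before the start. For each of these genes the RefSeq start lies inside the GENCODE gene, which begins at 94443318 for Mrpl9, 83109040 for Mrpl53 and 78783119 for Mrps11. Both matches of Mrpl53 therefore lie inside its GENCODE gene, while those of Mrpl9 and Mrps11 lie before theirs. A match describes these letters and is not evidence of binding.

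Over windows of 300 bases (250 before and 50 after the start), 69 of the 78 members had an entry. Those without one were Mrpl4, Mrpl13, Mrpl15, Mrpl19, Mrpl38, Mrpl54, Mrps28, Mrps34 and Mrps35. The GABPA motif was in 26 of the 69 (37.7%), against 9.93% of 27025 genes with an entry. YY1 was in 12 (17.4%), against 3.19% of genes, and NRF1 in 8 (11.6%), against 3.05%. Of the 8 members with NRF1, 7 were large-subunit genes, as were 43 of the 69 with an entry, and 31 members held none of the 3 motifs.

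Mrpl9 encodes a large-subunit protein with a bacterial counterpart that sits near the base of the L1 stalk. The gene (ENSMUSG00000028140) lies on the plus strand of chr3:94443318-94451130 in GRCm38. Its level in the DMSO tumours was 20.6 CPM at the lowest, 25.5 at the median and 28.9 at the highest, with a mean of 24.6 ± 2.94 CPM (SD, n = 9). In the 27HC tumours it was 16.2 CPM at the lowest, 19.6 at the median and 22.5 at the highest, with a mean of 19.8 ± 1.87 CPM (SD, n = 10). All 10 tumours of the 27HC group lay below the DMSO median, but the ranges overlapped: 3 DMSO tumours lay below the highest 27HC tumour. The fitted log2 fold change of 27HC over DMSO was -0.31 (SE 0.09). It was -0.355 without the 5 libraries of low GC content.

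**Figure D1:**
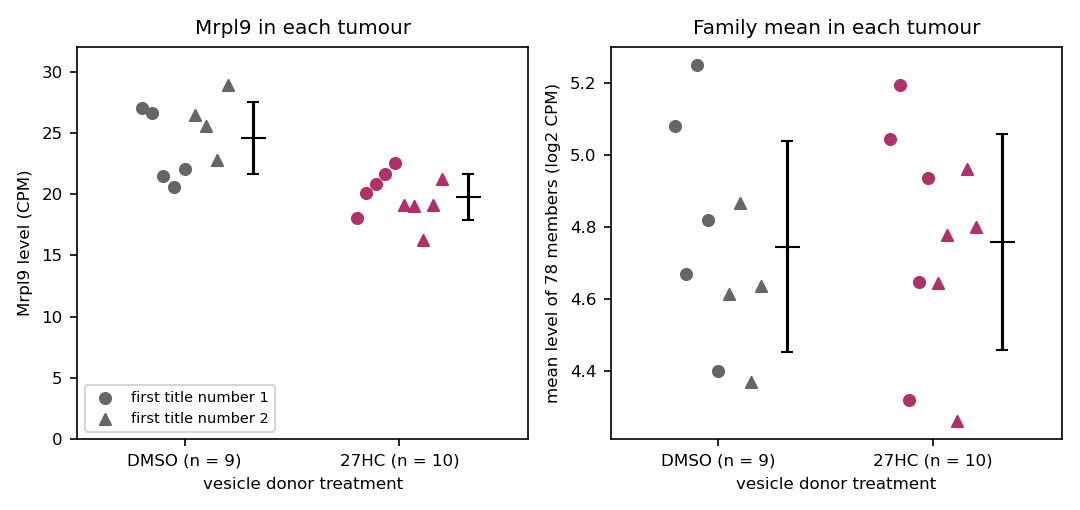
Level of Mrpl9 (left, CPM) and mean level of the 78 members (right, log2 CPM) in each tumour, with the vesicle donor treatment on the x axis. Circles and triangles are tumours whose title carries a first number of 1 or 2, and the bars are the mean ± SD. Mrpl9 sits lower in the 27HC group (19.8 against 24.6 CPM), while the family means of the groups overlap almost completely (4.76 against 4.74).

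The first number in each title has no stated meaning. The log2 difference of Mrpl9 was -0.17 among the tumours numbered 1 (5 against 5) and -0.48 among those numbered 2 (4 DMSO against 5 27HC). These values come from separate fits, and a joint fit of all 19 tumours put the difference between the numbers at -0.26 for Mrpl9, given here without a test. In the interaction test of that joint fit 0 of the 78 members passed at an adjusted p under 0.05, and 0% of 15629 genes did. At an unadjusted p under 0.05 there were 0 members. Of all genes, 1.43% were past that unadjusted threshold. The gene Oaz3 overlaps Mrpl9 on the opposite strand and was at 0.0172 to 0.903 CPM, far below Mrpl9.

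The share of members below 0 was close to that of all genes, and no member passed the test. In the edgeR quasi-likelihood test 0 of 78 members passed an adjusted p under 0.05 in either direction, and 0% of 15629 genes passed. Both DESeq2 and limma-voom also called 0 members, and DESeq2 called 2 genes in all. Of the 77 members other than Mrpl9, 0 had an unadjusted p under 0.05, against 0.979% of genes that were lower, 1.29% that were higher and 2.27% in either direction. A fitted fold change below 0 was found for 36 of 78 members (46.15%), against 46.1% of all genes tested. That count was 22 without the tumour DMSO 1_3. The median log2 fold change was 0.01 over the members and 0.01 over all genes, and it was 0.01 over the 77 members without Mrpl9, 35 of them below 0. The ranges of the groups overlapped for every member, and they were separate for 0% of all genes tested.

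**Figure D2:**
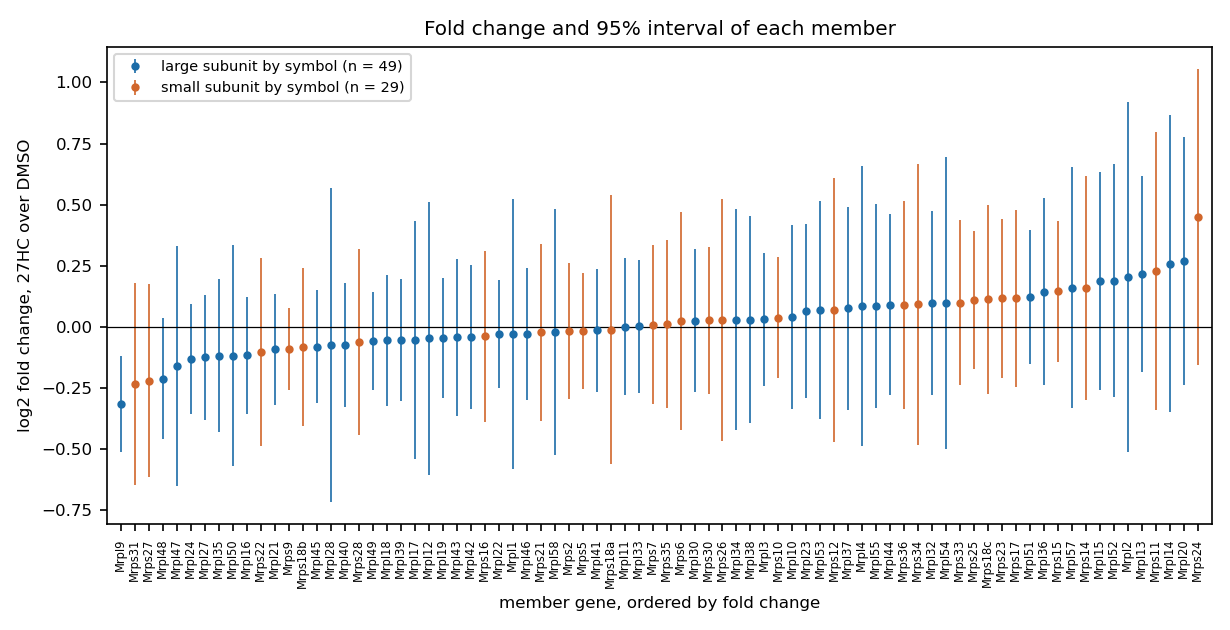
Log2 fold change of each member, 27HC over DMSO, ordered from lowest to highest, with 95% intervals as bars (9 DMSO and 10 27HC tumours). Values run from -0.31 (Mrpl9) to 0.45 (Mrps24), and large- and small-subunit genes are mixed along the order. The intervals of the 77 other members all include 0. That of Mrpl9 is no test, because the family was chosen by its values.

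The intervals give the precision of each value. For 59 of 78 members (75.6%) the 95% interval lay within a 1.5-fold change either way, against 53.2% of all genes. For 77 members (98.7%) it lay within a 2-fold change, against 86.3% of all genes.

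After Mrpl9, the members with the smallest p on the lower side were Mrpl48 and Mrpl24. Mrpl48, a large-subunit gene with no bacterial counterpart, was at 6.29 (lowest), 8.11 (median) and 10.8 (highest) CPM in the DMSO group and at 5.80, 6.87 and 8.15 CPM in the 27HC group, with a log2 fold change of -0.21 (SE 0.12). Mrpl24, a large-subunit protein near the exit of the peptide tunnel, was at 42.0, 51.0 and 76.3 CPM in the DMSO group and at 40.9, 48.1 and 60.2 CPM in the 27HC group. Its log2 fold change was -0.13 (SE 0.11), and -0.06 without the tumour DMSO 1_3, which held its highest value. For Mrpl48, 9 of 10 tumours of the 27HC group lay below the DMSO median. The ranges of the groups overlapped for both genes, and neither passed the test.

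On the higher side the members with the smallest p were Mrps24, Mrpl13 and Mrpl20. Mrps24, which encodes a small-subunit protein at the entry of the message channel, was at 14.8, 28.4 and 39.2 CPM in the DMSO group and at 8.44, 35.3 and 62.3 CPM in the 27HC group (lowest, median and highest). The 27HC group held both the lowest and the highest tumour of the series for this gene, and its log2 fold change of 0.45 had an SE of 0.29. Mrpl13 was at 23.7, 31.95 and 49.2 CPM with DMSO and at 24.4, 40.4 and 56.8 CPM with 27HC, a log2 fold change of 0.22 (SE 0.19). Mrpl20 was at 33.0, 48.5 and 93.4 CPM with DMSO and at 30.6, 64.0 and 104.8 CPM with 27HC, a log2 fold change of 0.27 (SE 0.24). None of the 3 passed the test. Mrps24 shares its strand with the overlapping gene Urgcp, and reads in the overlap could be counted for either.

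The medians of the subunits lay close together. Among the 49 Mrpl genes, 25 lay below 0 (median log2 fold change -0.01), and among the 29 Mrps genes, 11 did (median 0.03). Assigned by structure, the medians were -0.01 for 51 large-subunit and 0.03 for 26 small-subunit genes. By origin, 14 of 30 large-subunit genes with a bacterial counterpart lay below 0 (median 0.00) and 11 of 19 without one (median -0.02). In the small subunit 6 of 16 with a counterpart (median 0.03) and 5 of 12 without one (median 0.02) lay below 0. The mean level of the large minus the small subunit was 0.04 ± 0.07 log2 CPM in the DMSO tumours (SD, n = 9) and 0.01 ± 0.09 in the 27HC tumours (SD, n = 10). Without the 5 libraries of low GC content it was 0.01 ± 0.05 with DMSO (n = 7) and -0.04 ± 0.05 with 27HC (n = 7).

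While the groups differed little, single tumours differed widely and the members moved together. The mean level of the family ran from 4.26 log2 CPM in the tumour 27HC 2_3 to 5.25 in DMSO 1_3, a 1.99-fold range, and these ends lie in different groups. The DMSO tumours had a mean of 4.74 ± 0.29 log2 CPM (SD, n = 9) and the 27HC tumours a mean of 4.76 ± 0.30 (SD, n = 10). DMSO 1_3 held the highest value for 26 members, 27HC 1_2 for 23 and 27HC 1_5 for 16. The lowest value was in 27HC 2_3 for 23 members and in 27HC 1_3 for 17. The family took 0.227 to 0.347% of the counts of a tumour. A higher share of cells rich in mitochondrial ribosomes and more of their messages per cell cannot be told apart in whole tumours. The lowest family means, 4.26 to 4.40 log2 CPM, were in libraries of low GC content, while 27HC 1_5, also of low GC content, was at 4.93. The part of library GC content in the range of the family mean was not tested.

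**Figure D3:**
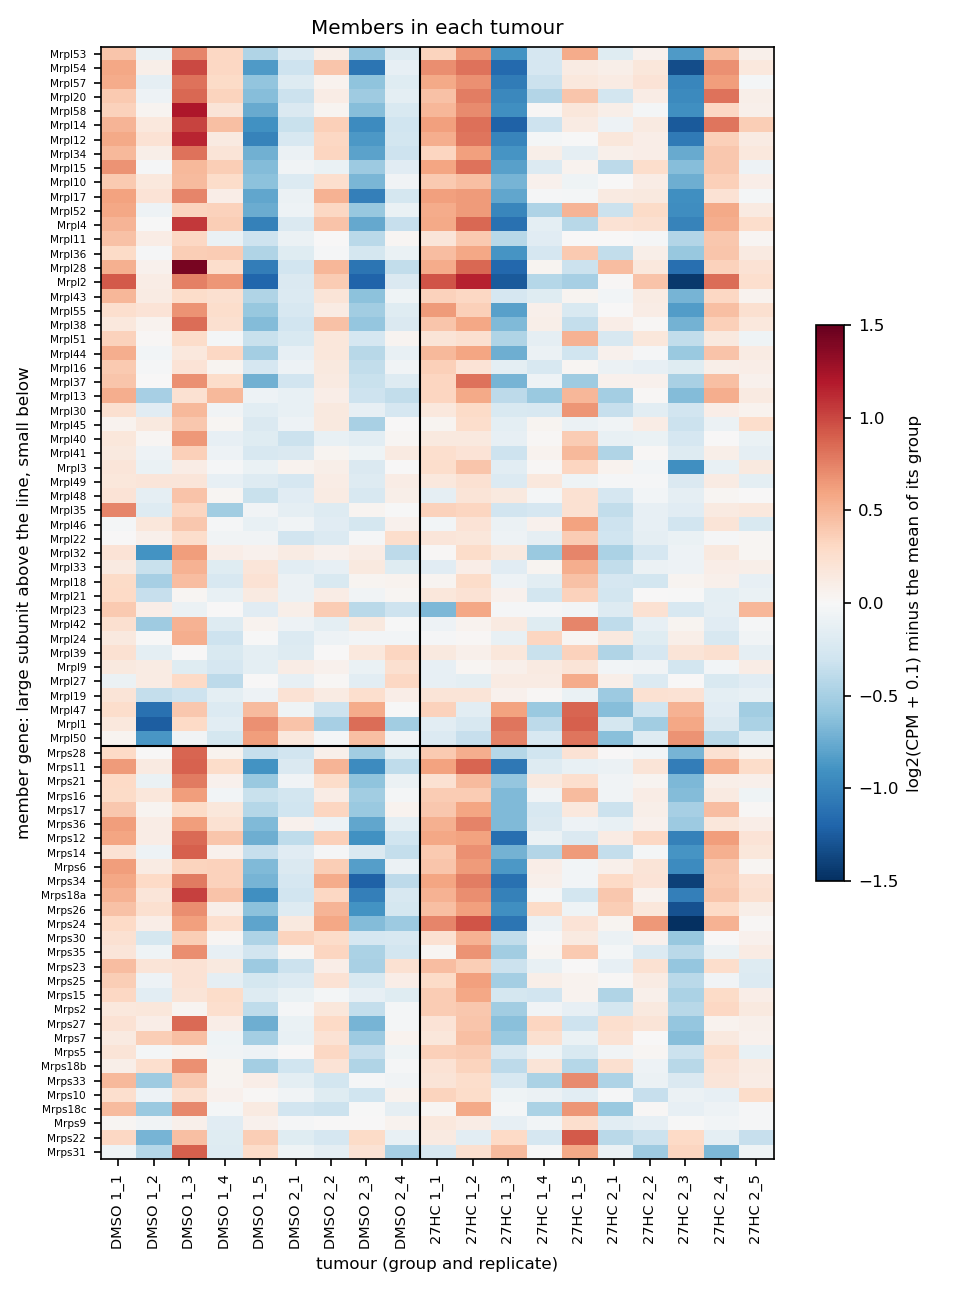
Level of each member (rows, large subunit above the line and small subunit below, ordered by correlation with the other members) in each tumour (columns), as log2(CPM + 0.1) minus the mean of the member in that group. Red is above and blue below the group mean, and colours end at 1.5. Most rows are red in DMSO 1_3 and 27HC 1_2 and blue in 27HC 1_3 and 27HC 2_3. The last rows of each block, such as Mrpl50, Mrpl1, Mrps22 and Mrps31, are red in 27HC 1_3 and 27HC 2_3. In DMSO 1_3 they do not all run the other way: Mrpl1, Mrps22 and Mrps31 are above their group mean there.

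With levels centred within each group, the mean Pearson r between pairs of members was 0.469 over 19 tumours, against 0.0055 between pairs of all tested genes. It was 0.579 within the small subunit, 0.413 within the large subunit and 0.483 between the subunits. A high value was not particular to the family. It was 0.681 among cytosolic ribosomal protein genes, 0.544 among nuclear respiratory chain genes and 0.721 among mitochondrially encoded genes. Among mitoribosome assembly factors it was 0.108, and among mitochondrial translation factors 0.0131. In the 14 tumours of higher GC content the mean r was 0.53 among members and 0.0195 among all genes. These values describe points that share libraries, depth and base composition. The members followed the mean of the others with a median r of 0.846, and 60 of 78 had an r above 0.5. Mrpl53, a large-subunit gene without a bacterial counterpart, followed it most closely (r = 0.969), and the small-subunit gene Mrps11 was at 0.952. Both overlap another gene, Mrpl53 on its own strand (Gm42688) and Mrps11 on the opposite strand (Mrpl46).

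Mrpl9 was among 9 members with an r below 0.2 (0.0955 over 19 tumours, and -0.452 over the 14 of higher GC content). The others were Mrpl50 (r = -0.464), Mrpl1 (r = -0.336), Mrpl47, Mrpl19, Mrps31, Mrpl27, Mrps22 and Mrpl39. Mrpl1 encodes the protein of the L1 stalk, which moves spent transfer RNA out of the ribosome. Mrpl9 also varied little: the pooled SD of its log2 CPM within groups was 0.156, and only Mrps9 of the small subunit had a smaller one among the 78 (0.108). The members with the largest SD were Mrpl2 (0.849), which lies at the peptide bond-forming centre, Mrpl28 (0.743) and Mrps24 (0.741).

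Among the genes with the level pattern most like that of Mrpl9 over 19 tumours, by Pearson r after centring within groups, the first 5 of 15628 were Mfsd1 (0.68), Paip2b (0.679), Ly6g6c (0.662), Gsr (0.659) and Alyref (0.645). No member was among them. The closest member, Mrpl3, ranked 119 with an r of 0.47, followed by Mrpl27 (0.429), Mrpl23 (0.373), Mrps7 (0.295) and Mrpl46 (0.284). Over the 77 other members the median r with Mrpl9 was 0.077, with 60 above 0 and 17 below. The 8 members with the NRF1 motif in their promoter, Mrpl9 among them, had a median r with the other members of 0.426. Their values ran from 0.0955 (Mrpl9) to 0.924 (Mrpl10), so the motif did not mark a single pattern. Members without it had a median of 0.841. For GABPA the medians were 0.856 with and 0.812 without the motif, and for YY1 0.829 with and 0.829 without.

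The large- and small-subunit means moved in step over the tumours (Pearson r = 0.978, Spearman rho = 0.972, and r = 0.97 without the 2 tumours farthest from the median). In the 14 tumours of higher GC content r was 0.977. With subunits by symbol, the difference between the means was 0.0903 to 0.179 log2 CPM in the 5 libraries of low GC content. In the other 14 it was -0.098 to 0.0867, so the ranges by symbol were separate by a narrow margin. Assigned by structure, the ranges overlapped, with 0.0618 to 0.163 in the 5 libraries and -0.0474 to 0.0942 in the other 14. The family mean was lowest in 4 of those 5 libraries (4.26 to 4.40 log2 CPM), and the exception, 27HC 1_5, was at 4.93.

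**Figure D4:**
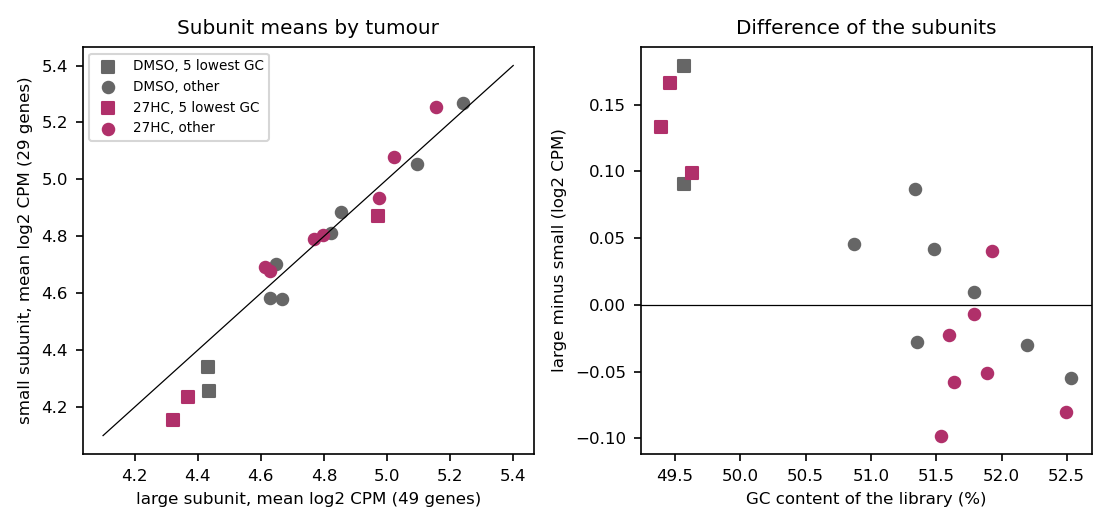
Left, mean level of the 49 large-subunit and the 29 small-subunit genes in each tumour (log2 CPM), with the line of equality. Right, large minus small mean against the count-weighted GC content of the library. Squares are the 5 libraries of lowest GC content, grey is DMSO and red is 27HC: the points follow the line (r = 0.978) and the squares lie at 0.09 to 0.18 on the right.

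In the libraries of low GC content 61 of 78 members had a lower mean than in the others, with a median log2 difference of -0.42. The median of all genes was 0.09. For cytosolic ribosomal protein genes it was -0.70, for nuclear respiratory chain genes -0.67 and for mitochondrially encoded genes 0.22. Over the members, the difference followed the GC content of the transcripts (Spearman rho = -0.625 across 78 genes, which share libraries and are not independent). Mrpl2 had a difference of -1.52, Mrpl28 of -1.30, Mrps18a of -1.16 and the stalk gene Mrpl12 of -1.06. Among the 17 members on the other side were Mrpl1 (1.04), Mrpl50 (0.89), Mrpl47 (0.83), Mrps22 (0.59) and Mrps31 (0.51), and Mrpl9 was at -0.07. The cause of the split of the libraries was not tested.

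Levels between genes were compared per kilobase of exon. The median member was at 12.8 CPM per kilobase, against 4.39 over all tested genes, with 13.0 in the large and 12.4 in the small subunit. Mrpl12 was highest at 181 ± 74.0 CPM per kilobase (SD, n = 19), above every other stalk gene and above Mrpl38, the next member, in 19 of 19 tumours. It encodes the L12 stalk protein, which recruits translation factors and is present in several copies per ribosome. Mrpl38 was at 83.1 ± 25.3, above Mrpl2 (59.3 ± 30.3) in 18 of 19 tumours. In the small subunit Mrps7 (58.6 ± 12.8) and Mrps21 (58.5 ± 15.3) led, and their order was not resolved, with Mrps7 higher in 10 of 19 tumours. Mrps15 followed at 25.5 ± 5.42.

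The lowest members were Mrpl23 (0.783 ± 0.180 CPM per kilobase), Mrpl48 (0.919 ± 0.15) and Mrps10 (0.957 ± 0.134), then Mrpl47 (1.70), Mrps31 (1.88) and Mrps22 (3.29). Mrps10 and Mrpl48 were not separated, with Mrps10 higher in 10 of 19 tumours. The level of Mrpl23, which lies at the tunnel exit, is uncertain: its pseudogene Mrpl23-ps1 held 82.8% of the mean expected counts of the pair (634 against 132). For Mrpl48 the pseudogene Mrpl48-ps held 21.1% (69.2 against 259). Per kilobase of the longest coding transcript the median member was at 19.55 CPM, and Mrpl12 (211) and Mrpl38 (150.2) stayed at ranks 1 and 2. Other orders depended on the length used. By that length Mrpl2 moved from rank 3 to 8, Mrpl23 from 78 to 71, and Mrps10 from 76 to 66 at 6.95, above Mrpl48 at 1.75. Mrps21 led the small-subunit symbols at 88.6, followed by Mrps18a at 64.3 and Mrps7 at 61.9, and Mrps15 was at 46.0.

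**Figure D5:**
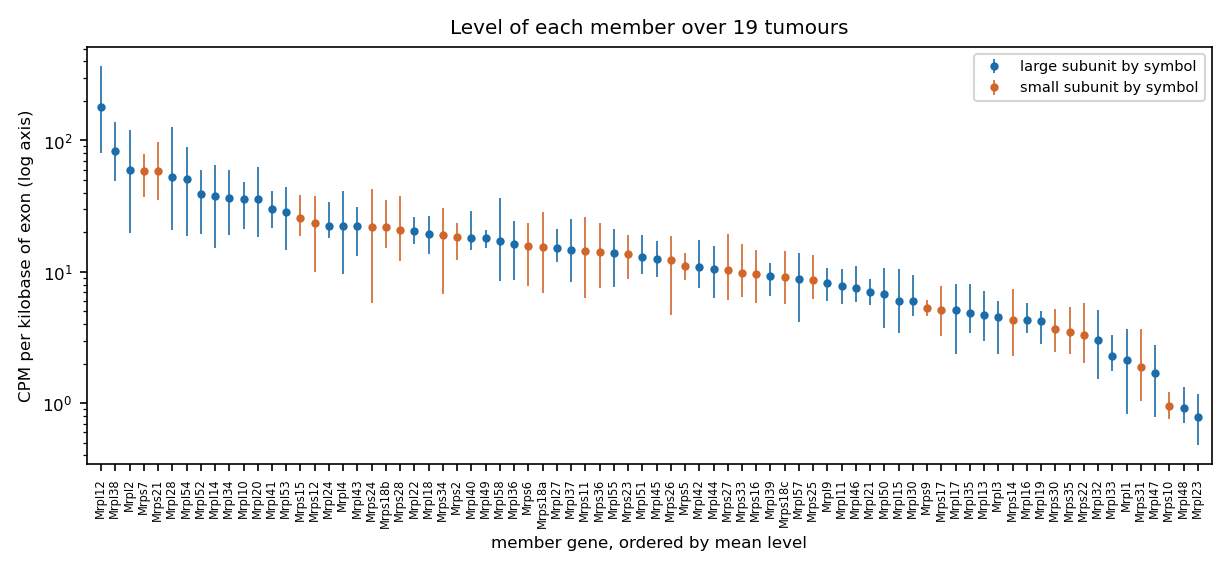
Mean level of each member over 19 tumours in CPM per kilobase of exon, on a log axis, ordered from highest to lowest. Bars run from the lowest to the highest tumour, and colours give the subunit by symbol. The members span from 181 (Mrpl12) to 0.783 (Mrpl23), and large- and small-subunit genes are mixed along the order.

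The genes of the stalk base differed in level. Mrpl10, which anchors the copies of the L12 protein, was at 36.0 ± 9.16 CPM per kilobase and Mrpl11 at 7.84 ± 1.47, in the order Mrpl12, Mrpl10, Mrpl11 in 19 of 19 tumours. All 3 followed the family, with an r of 0.951, 0.924 and 0.909. In the DMSO and 27HC tumours Mrpl12 was at 282 ± 134 and 273 ± 98.4 CPM, Mrpl10 at 60.6 ± 16.3 and 62.4 ± 15.9 CPM, and Mrpl11 at 25.3 ± 4.78 and 25.3 ± 4.99 CPM (SD, n = 9 and 10).

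The paralogs of bacterial S18 occupy different places in the ribosome. Mrps18b was at 21.8 ± 5.06 CPM per kilobase and above Mrps18a (15.4 ± 6.01) in 19 of 19 tumours, and Mrps18a was above Mrps18c (9.09 ± 2.59) in 14. Per kilobase of the longest coding transcript the order of the first pair turned, with Mrps18a at 64.3, Mrps18b at 42.2 and Mrps18c at 11.9. Mrps18a followed the family with an r of 0.901, Mrps18b with 0.743 and Mrps18c with 0.536. Mrps30, whose protein is in the large subunit, was at 3.67 ± 0.745 CPM per kilobase and followed the family with an r of 0.860. Mrpl58, a peptide-releasing hydrolase that is also built into the large subunit, was at 17.04 ± 6.68 with an r of 0.956. Mrps36 was at 14.2 ± 4.38 with an r of 0.924, although its protein is not a ribosomal one.

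Genes that work with the family were counted from lists taken from textbook knowledge, and in each of them edgeR called 0 genes at an adjusted p under 0.05. All 5 ribosome subunits with other symbols were tested, and 2 lay below 0 (median log2 fold change 0.08). Of 14 tested translation factors 10 lay below 0 (median -0.06), of 25 assembly factors 17 (median -0.05), of 17 mitochondrial tRNA synthetases 11 (median -0.03) and of 12 regulators of mitochondrial gene expression 6 (median -0.01). Cytosolic ribosomal protein genes had 22 of 82 below 0 (median 0.14), and nuclear respiratory chain genes had 17 of 83 (median 0.13). The 13 genes encoded in the mitochondrial genome, the messages this ribosome translates, had 0 below 0 and a median of 0.41. Against these stand the 36 of 78 members below 0 and their median of 0.01, and no difference between lists was tested. Of all genes tested 46.1% lay below 0, with a median of 0.01. Genes within a list can move together, so they do not count separately. The mean pairwise r was 0.681 among cytosolic ribosomal protein genes, 0.544 among nuclear respiratory chain genes and 0.721 among mitochondrially encoded genes.

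Over the 19 tumours the mean level of the family ran closely with that of the nuclear respiratory chain genes (r = 0.982, rho = 0.984), of the cytosolic ribosomal protein genes (r = 0.98, rho = 0.97) and of the other ribosome subunits (r = 0.965, rho = 0.96). For assembly factors r was 0.811, for tRNA synthetases 0.845 and for the mitochondrially encoded genes 0.619. These are values for list means, and the genes of a list need not follow its mean. The mean pairwise r was 0.0074 among tRNA synthetases, 0.108 among assembly factors and 0.183 among the other ribosome subunits, against 0.469 among members. For translation factors it was -0.329 and for regulators -0.177. For proliferation genes r was 0.445, for leukocyte markers -0.596, for skeletal muscle markers -0.141 and for the library total -0.419. These 19 points share libraries and base composition and are given as a description.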

How the data were processed

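RNA sequencing of poly(A) RNA was analysed for 19 tumours. Per the labels' protocols, libraries were stranded and paired-end. The table deposited by the authors holds expected counts for 26796 genes. Per the submitters' processing notes, edgeR, limma and kallisto 0.44.0 were used, with the build GRCm38. The sources used here do not state how transcripts were summed to genes, the annotation release or whether counting used strand, and 29 members overlap another gene. Symbols, coordinates and transcript GC content came from GENCODE M21 on GRCm38, which named 26290 genes.

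Expected counts were rounded, and the quasi-likelihood test of edgeR 4.0.16 was run under R 4.3.3 over all genes, with TMM normalization and filterByExpr, which kept 15629 genes. Adjusted p-values are Benjamini-Hochberg values over all of them, with a threshold of 0.05. CPM of members use normalized library sizes, means of log2 CPM use a prior count of 2, and CPM of markers and summed lists use library totals. Standard errors come from the F statistic. Alternatives used DESeq2 1.42.0, limma 3.58.1, other scalings, filters and sample sets. The fit was tested on counts simulated from the means and spread of these data. It called 4% of 100 genes changed 1.5-fold and 45% of 100 changed 2-fold, with 0 false calls. A call of 0 members therefore does not by itself exclude changes of this size. The intervals of the members, given above, say more. They lay within a 2-fold change either way for 77 of 78 members, and within a 1.5-fold change for 59. No pair of libraries in a group agreed within sampling noise (lowest chi-square 39 per degree of freedom).

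The members and the lists were chosen with earlier results of these data known. Named members were Mrpl9; the 3 with the smallest p in each direction; the 3 highest and lowest levels in each subunit; the 3 largest SDs; the stalk genes, Mrps18 paralogs, Mrps30, Mrps36 and Mrpl58; and the closest patterns to Mrpl9. Mrpl53, Mrps11, Mrps9 and the members named for low correlation or for their difference in low-GC libraries were chosen after their values were seen.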

Additional observations from a re-analysis of the deposited data

Results flagged for a closer look

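In 62 groups of tumours examined (31 measures in 9 DMSO and 10 27HC tumours), 7 held 1 tumour far from the others, where chance gives about 1 in 20. In 4 of them the tumour was DMSO 1_3, which also has the highest family mean. Mrpl28 was at 174.8 CPM there and at 94.7 CPM in the next tumour, Mrpl58 at 122.4 against 67.2 CPM, Mrpl24 at 76.29 against 58.0 CPM, and Mrps31 at 12.09 against 7.81 CPM. In the other 3 it was 27HC 1_5, the low-GC library with a high family mean. Mrps22 was at 23.09 CPM there and at 15 CPM in the next tumour, Mrpl46 at 15.76 against 11.9 CPM, and Mrpl27 at 20.94 against 15.5 CPM. All 7 were high values, and the members were measured in the same libraries.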

How the results depend on the processing

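Members called remained 0 in 15 alternatives and in 19 fits that each left out 1 tumour, and the interaction called 0 in 5. Members below 0 numbered 29 to 46 over the 15, and 22 (without DMSO 1_3) to 52 (without 27HC 1_2) on leaving out 1 tumour. Their median log2 fold change was -0.03 to 0.08, and -0.04 to 0.09 on leaving out 1 tumour. The large minus small median was -0.04, ran from -0.06 to 0.00, and from -0.07 to 0.01 on leaving out 1 tumour. Mrpl9 stayed lower, from -0.48 (first title number 2 alone) to -0.17 (number 1 alone), and from -0.37 to -0.28 on leaving out 1 tumour. With the full title number as a replicate block, Mrpl9 was at -0.32, 35 members lay below 0, the median was 0.01 and 0 members were called. Whether the numbers pair the tumours is not stated, and these levels cannot settle it. Among the 9 same-numbered pairs the correlation of deviations ran from -0.426 to 0.779, with 5 over 0.1. Of the DMSO tumours, 1 correlated best with its own number. Members with an unadjusted p under 0.05, counting Mrpl9, numbered 5 of 78 with sample quality weights, beside 1047 of 15629 genes. Without the 5 low-GC libraries they numbered 4 of 78, beside 917 of 15260 genes. The counts thus rose over all genes and not only in the family. The GC covariate was added after seeing the data. The cause of the differences between settings was not tested. No member had 0 counts in a tumour, and depth is thinnest for members such as Mrpl23, with a mean of 132 expected counts.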
